A study of Mus musculus with 6 samples.

Results

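The genes of the TGF-beta ligands, their receptors and the latency proteins that hold them in the matrix were followed in mouse muscle stroma sorted by a p16 reporter (p16 is a cell cycle inhibitor made from Cdkn2a). The members were the 10 genes Tgfb1, Tgfb2, Tgfb3, Tgfbr1, Tgfbr2, Tgfbr3, Ltbp1, Ltbp2, Ltbp3 and Ltbp4, taken by their symbols in the GENCODE vM21 annotation from the 55536 genes of the count files. All 10 passed the filter on low counts, which left 15903 genes for testing. There were 3 libraries of tdTomato-positive (p16+) cells and 3 of tdTomato-negative (p16-) cells, both from mice on the C57Bl/6 background that carry the tdTomato p16 reporter, and both sorted from the gate CD45-CD31-CD29+. Per the labels' protocols, quadriceps muscle was removed on both sides in animals 10 weeks old, and the defect was filled with 30 mg of polycaprolactone particles, with decellularized matrix or with 50 uL of saline, and the muscle was taken 1 or 6 weeks later. The filler and the time of these 6 libraries are not given in the sources used here, so it is not known whether both groups shared them. Whether each replicate is another animal is not in the labels, and the p-values therefore reflect the spread among these libraries alone, which may be technical. The comparison asks how reporter-positive stromal cells differ from reporter-negative ones of the same gate.

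TGF-beta is made as a precursor whose amino-terminal part, the latency-associated peptide, stays wrapped around the growth factor after cleavage. This latent complex is usually bound by a latent TGF-beta binding protein (LTBP), which anchors it to fibrillin and fibronectin fibres until integrins or proteases release it. The free ligand binds the type II receptor, which then activates the type I receptor and, through it, SMAD transcription factors. In injured muscle the pathway is known for driving matrix production by fibroblasts.

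Library totals were between 35253406 and 39103909 counts, with normalization factors of 0.9707 to 1.041. Cdkn2a, the basis of the sort, averaged 7.82 ± 0.961 CPM with the reporter on and 2.13 ± 0.329 CPM with it off (SD over 3 libraries; adjusted p = 2.0e-05 by edgeR). CPM are counts scaled to 1e+06 per library after TMM scaling. On the first principal component of log2 CPM (41.2% of the variance) the p16+ libraries lay at -43.04 to -26.08 and the p16- libraries at 25.81 to 48.16. The ends nearest the other group were p16+ replicate 1 and p16- replicate 2. All 8 mesenchymal markers were present in every library, at 204.8 CPM or more. Of the genes of the gate, Itgb1 (CD29) was at 696 CPM or more, Ptprc (CD45) at 7.77 ± 2.22 against 4.89 ± 0.929 CPM, and Pecam1 (CD31) at 6.73 ± 1.58 and 3.34 ± 0.778 CPM, the last a called rise (adjusted p = 0.00871 by edgeR). Of 15 leukocyte markers 7 rose and 0 fell in p16+, with summed levels of 304.2 to 358.6 CPM against 216.2 to 242.7. Of 8 endothelial markers 3 rose and 1, Tek, fell. The endothelial sum was 68.9 to 96.5 CPM in p16+ and 174.2 to 206.6 CPM in p16-, most of it Tek. Of 10 pericyte and smooth muscle markers 7 rose and 0 fell (sums of 2772 to 2826 against 1854 to 2260 CPM). Of 6 satellite cell markers 3 rose and 0 fell, of 6 glial markers 0 rose and 4 fell (46.5 to 57.3 against 78.5 to 137.1 CPM), and of 7 muscle fibre markers 0 were called. Of 5 platelet markers 1 rose and 1 fell, while Gp9 and Gp1bb were too low to be tested. Over all genes tested 8.69% were called higher and 8.04% lower. No marker was at 0 in all 6 libraries. The part of these cells in the results below was not tested, and in bulk libraries fewer cells of a type and less RNA per cell cannot be told apart.

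The upstream sequences of 4 members are shown here because these had the largest rise and the largest fall within their class, Tgfb1 and Tgfb2 among the ligands and Ltbp2 and Ltbp1 among the LTBPs. They are from RefSeq on GRCm38.p6 and run 5′ to 3′ on the gene's strand, up to the base before the annotated start, with matches to the searched motifs in capitals. For Ltbp2 the last 41 bases, which vM21 annotates as exon, are left out. The region of Tgfb1 is chr7:25686752-25687001 (plus strand), that of Tgfb2 chr1:186705990-186706239 (minus), that of Ltbp1 chr17:75005279-75005528 (plus, the upstream one of 2 annotated starts) and that of Ltbp2 chr12:84876533-84876741 (minus).
Tgfb1: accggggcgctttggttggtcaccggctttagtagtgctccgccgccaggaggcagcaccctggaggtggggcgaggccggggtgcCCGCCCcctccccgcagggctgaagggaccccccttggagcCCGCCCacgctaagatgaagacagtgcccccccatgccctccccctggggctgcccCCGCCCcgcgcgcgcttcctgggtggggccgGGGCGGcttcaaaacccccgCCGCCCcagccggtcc
Tgfb2: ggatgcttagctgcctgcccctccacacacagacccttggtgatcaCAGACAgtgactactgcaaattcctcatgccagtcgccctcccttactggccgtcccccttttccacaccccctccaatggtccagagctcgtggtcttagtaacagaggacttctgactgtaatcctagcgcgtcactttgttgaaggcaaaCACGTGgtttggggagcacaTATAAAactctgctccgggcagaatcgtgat
Ltbp1: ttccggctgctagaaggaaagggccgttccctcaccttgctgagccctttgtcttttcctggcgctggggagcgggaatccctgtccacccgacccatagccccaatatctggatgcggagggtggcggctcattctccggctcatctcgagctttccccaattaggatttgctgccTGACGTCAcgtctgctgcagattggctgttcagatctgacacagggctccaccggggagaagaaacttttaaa
Ltbp2: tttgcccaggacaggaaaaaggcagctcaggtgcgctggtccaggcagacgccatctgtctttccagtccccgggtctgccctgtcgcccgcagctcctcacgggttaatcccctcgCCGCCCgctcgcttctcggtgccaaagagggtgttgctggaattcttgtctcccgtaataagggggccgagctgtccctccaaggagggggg

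The motifs were searched on both strands in the 250 bases before each start. They were TATAAA (the TATA box), TGACGTCA (the cAMP response element), GGGCGG (the GC box bound by SP1), CACGTG (an E-box), CAGACA (from the SMAD-binding CAGA box) and TGANTCA (the AP-1 site), and none of them contains another. Tgfb1 held 5 GC boxes and none of the other motifs, with 75.2% G and C. Tgfb2 held a TATA box at bases -31 to -26, an E-box at -51 to -46 and a CAGACA at -204 to -199, with 53.6% G and C. The upstream start of Ltbp1 held a cAMP response element at -73 to -66, and Ltbp2 held GC boxes at -133 to -128 and, in the bases not printed, at -9 to -4. Of all 32851 RefSeq starts, 32.7% held a GC box, 12.4% a TATA box, 6.02% the E-box, 17.1% CAGACA, 6.75% the AP-1 site and 1.55% the cAMP response element. Of the called members whose sequences are not printed, Ltbp4, which fell, held 3, 5 and 7 GC boxes at its 3 starts, of which the last 2 regions overlap, and Ltbp3, which rose, held 0 matches to any of the motifs. RefSeq gave 12 starts for 8 of the 10 members. Tgfb3 and Tgfbr3 were not matched. These are matches of letters only, and no binding was measured.

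Of the 10 genes 4 were higher and 3 lower in p16+ cells, and 3 did not pass an adjusted p of 0.05. All 3 ligand genes and all 4 LTBP genes were called, each class with genes in both directions, and 0 of the 3 receptor genes was called. Over all 15903 genes tested 16.7% were called, 8.69% higher and 8.04% lower. The groups did not overlap in 8 of the 10 genes, against 33.1% of all genes. The median log2 fold change was 0.05 over the members and -0.01 over all genes tested, since the rises and falls lay on both sides of 0. The adjusted p-values are from edgeR's quasi-likelihood test with Benjamini-Hochberg adjustment over all genes, fold changes are p16+ over p16-, and levels are means ± SD over 3 libraries. The exact two-sided permutation test over libraries gave p = 0.1 for each of the 8 genes whose groups did not overlap, which is the lowest value that groups of 3 can reach. With library sizes in place of TMM factors the median over all genes shifted to -0.08, 36.0% of the called genes were higher in place of 51.95%, and the members were 4 higher and 4 lower.

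**Figure D1:**
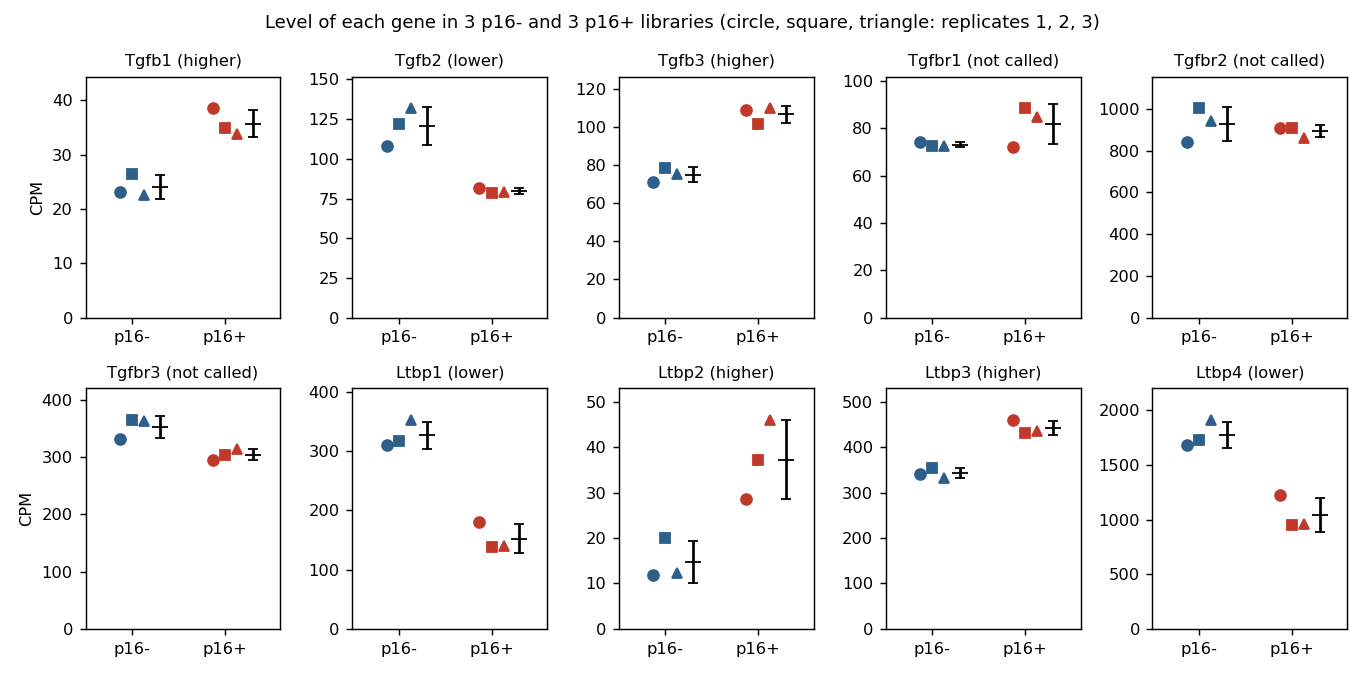
Level of each of the 10 genes in CPM (vertical axis, from 0) in the 3 p16- (blue) and 3 p16+ (red) libraries, with replicates 1, 2 and 3 as circle, square and triangle and the mean ± SD in black. All p16+ points lie above the p16- points for Tgfb1, Tgfb3, Ltbp2 and Ltbp3 and below them for Tgfb2, Tgfbr3, Ltbp1 and Ltbp4, while Tgfbr1 and Tgfbr2 overlap.

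Among the ligands, Tgfb2 (ENSMUSG00000039239.14, chromosome 1, 186622792 to 186705989, minus strand, GRCm38) fell. The product of this gene depends on the co-receptor betaglycan for strong binding to the type II receptor. Its level was 81.76, 78.28 and 79.33 CPM in p16+ replicates 1 to 3 and 108.3, 122.2 and 131.7 CPM in p16-. The p16+ libraries were close to each other, and the lowest p16- library stood well above them. On the log2 scale it fell by 0.60 (SE 0.08, adjusted p = 8.69e-05 by edgeR), from 120.7 ± 11.8 to 79.8 ± 1.79 CPM.

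Tgfb3 (ENSMUSG00000021253.7, chromosome 12, 86056745 to 86079041, minus strand) rose. It encodes the isoform known for its part in palate fusion. Its level was 109.0, 101.4 and 109.8 CPM in p16+ and 70.95, 78.79 and 75.44 CPM in p16-, with no overlap. The rise was 0.51 on the log2 scale (SE 0.08, adjusted p = 0.000188 by edgeR), or 1.42-fold. Of its exonic length 12.4% is overlapped by Gm37804 and Gm48008 on the opposite strand, and the counts do not use strand.

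Tgfb1 (ENSMUSG00000002603.15, chromosome 7, 25687002 to 25705077, plus strand), the isoform of platelets, macrophages and most fibrotic tissue, also rose. The p16+ libraries had 38.52, 34.88 and 33.84 CPM and the p16- libraries 23.11, 26.53 and 22.49 CPM. The lowest p16+ library was thus above the highest p16- library, a difference of 0.57 on the log2 scale (SE 0.10) and an edgeR adjusted p of 0.00091. Of the 15 leukocyte markers 7 also rose and 8 were not called, where 8.69% of all genes tested were called higher. The macrophage receptor gene Csf1r had the largest log2 fold change of the 15, from 12.5 ± 3.28 to 28.2 ± 3.39 CPM. Hmgxb3 on the other strand covers 15.1% of its exons. The macrophage gene Cd68 had 15.6 and 15.8 CPM (adjusted p = 0.938 by edgeR). The part of leukocytes in the rise of Tgfb1 was not tested.

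Levels of different genes were compared as CPM per kilobase of exonic length. On that scale the sum of the 3 ligands was 53.99, 50.40 and 52.86 in p16+ and 44.25, 49.66 and 49.51 in p16-. The groups did not overlap, but the closest libraries, p16+ replicate 2 and p16- replicate 2, were near each other. The makeup of the sum differed more. Tgfb3 made up 60.2% ± 1.05 of it in p16+ and 46.4% ± 1.24 in p16- (SD, n = 3 each). Tgfb2 made up 26.3% ± 0.470 and 43.6% ± 2.06, and Tgfb1 13.5% ± 0.747 and 9.99% ± 0.854. In each p16+ library Tgfb3 exceeded Tgfb2 by 2.217 to 2.369 times, while in p16- libraries the ratio was 0.9804 to 1.122. Such shares and ratios do not depend on the scaling between libraries, but they do depend on the division by exonic length. In shares of plain counts, Tgfb2 made up 54.9% ± 2.16 and Tgfb3 34.2% ± 1.17 in p16-. In p16+ the shares of plain counts were 35.9% ± 0.504 for Tgfb2 and 48.0% ± 1.07 for Tgfb3. The exact two-sided permutation test gave p = 0.1 for each of the 3 shares, the smallest possible, and 0.125 after Benjamini-Hochberg adjustment over the 10 shares of the 3 classes.

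**Figure D2:**
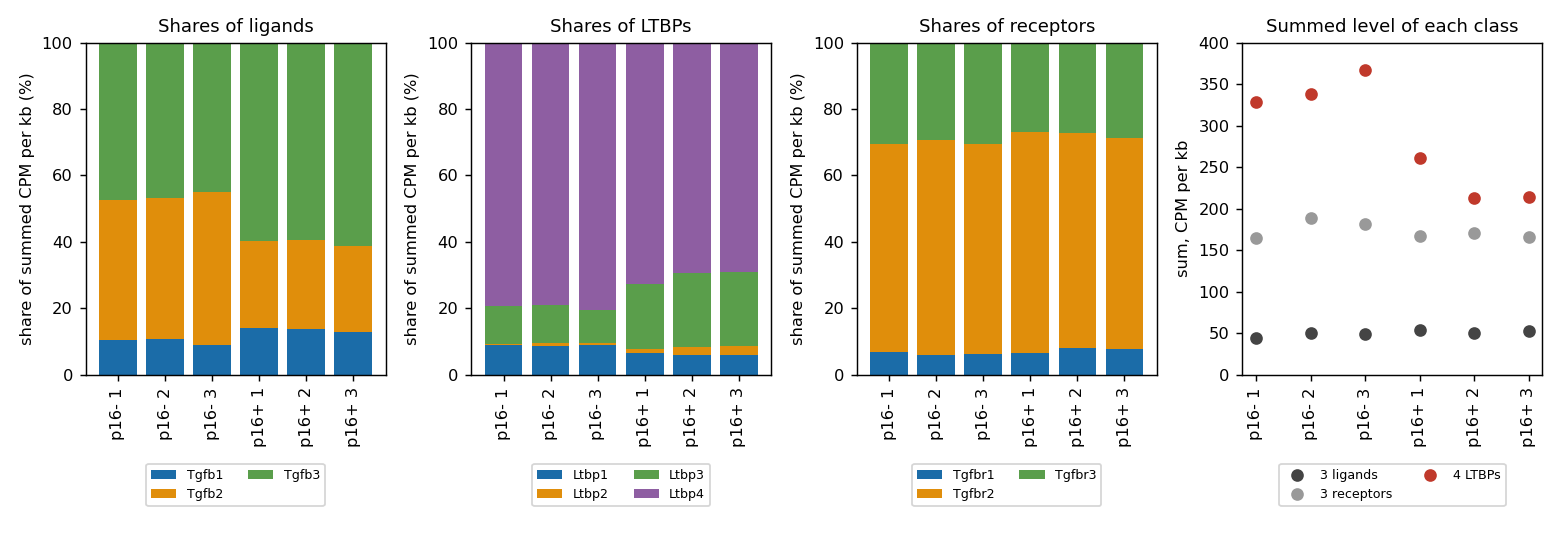
Share of each gene in the summed CPM per kilobase of its class in each library (first 3 panels, in percent) and the summed level of each class (last panel, CPM per kilobase). In p16+ libraries Tgfb3 takes 59.45% to 61.39% of the ligand sum and Ltbp3 19.46% to 22.35% of the LTBP sum, against 45.04% to 47.39% and 9.967% to 11.55% in p16- libraries.

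Ltbp2, Ltbp1 and Ltbp4 had the largest fold changes of the 10, while Ltbp3 had the smallest of the called genes. Ltbp1 (ENSMUSG00000001870.16, chromosome 17, 75005568 to 75392512, plus strand) encodes the binding protein first found with latent TGF-beta, which is disulfide-linked to the latency-associated peptide. It fell from 309.7, 316.1 and 352.3 CPM in p16- to 179.8, 137.5 and 138.9 CPM in p16+. The groups stood far apart, and the highest p16+ library was replicate 1, which also lay nearest to p16- on the first principal component. Its log2 fold change was -1.10 (SE 0.10, adjusted p = 1.89e-06 by edgeR). RefSeq gives Ltbp1 starts at 75005529 and 75178781, which begin a long and a short form, and gene-level counts do not separate them.

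Ltbp4 (ENSMUSG00000040488.17, chromosome 7, 27305136 to 27337692, minus strand), which is needed for elastic fibre assembly and binds the latent Tgfb1 product, fell as well. It was the most abundant of the 10 genes per kilobase in both groups. Its levels were 1225, 954.2 and 956.7 CPM in p16+ and 1686, 1724 and 1912 CPM in p16-, with p16+ replicate 1 again the highest of its group. This was a change of -0.76 on the log2 scale (SE 0.10, adjusted p = 5.29e-05 by edgeR).

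Ltbp2 (ENSMUSG00000002020.15, chromosome 12, 84783212 to 84876532, minus strand), a microfibril protein that does not bind latent TGF-beta, had the largest rise. The p16+ libraries had 28.56, 37.16 and 45.99 CPM and the p16- libraries 11.87, 20.05 and 12.26 CPM. It was the least abundant of the 10 per kilobase and varied most between replicates, and still the lowest p16+ library, replicate 1, lay above the highest p16- library, replicate 2. The log2 fold change was 1.34 (SE 0.21, adjusted p = 0.000892 by edgeR), or 2.53-fold, and 1.16 to 1.63 with any 1 library left out.

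Ltbp3 (ENSMUSG00000024940.11, chromosome 19, 5740904 to 5758532, plus strand), which binds latent TGF-beta and is known from bone and tooth growth, rose less. Its levels of 460.0, 430.8 and 435.0 CPM in p16+ and 341.9, 353.8 and 331.6 CPM in p16- were tight within each group and did not overlap. The log2 fold change was 0.37 (SE 0.07, adjusted p = 0.00241 by edgeR).

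Per kilobase the 4 LTBPs summed to 260.6, 212.5 and 214.6 in p16+ and to 329, 337.8 and 366.8 in p16-, a lower sum in each p16+ library. Ltbp4 made up most of it, 70.4% ± 2.05 in p16+ and 79.6% ± 0.887 in p16-. The share of Ltbp3 was 21.4% ± 1.67 against 11.0% ± 0.889, that of Ltbp1 6.19% ± 0.230 against 8.85% ± 0.120, and that of Ltbp2 2.03% ± 0.646 against 0.525% ± 0.174. The ratio of Ltbp2 to Ltbp1 was 0.2075 to 0.4325 in p16+ and 0.04544 to 0.08285 in p16-. The LTBP sum was 4.37 ± 0.406 times the ligand sum in p16+ and 7.22 ± 0.358 times in p16-. For each of these shares and ratios the groups did not overlap and the exact permutation p was 0.1, the smallest possible. The shares had an adjusted p of 0.125 in that exact test.

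**Figure D3:**
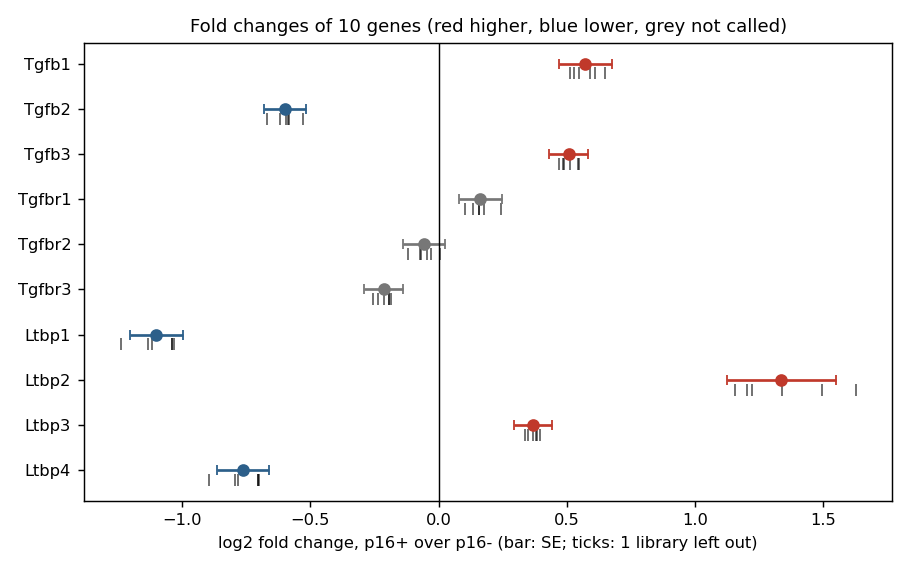
Log2 fold change of each gene, p16+ over p16- (horizontal axis), as points with SE bars, with short ticks for the values when 1 library was left out. Red marks genes called higher, blue lower and grey not called, and the 6 ticks of each called gene stay on the side of its point.

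None of the 3 receptor genes passed the threshold. Tgfbr2 (ENSMUSG00000032440.13, chromosome 9, 116084293 to 116175360, minus strand), the type II receptor that binds the ligand, was at 910.9, 910.2 and 860.6 CPM in p16+ and 842.6, 1002 and 942.0 CPM in p16-. All 3 p16+ libraries lay within the range of p16-. The log2 fold change was -0.06 with a 95% interval from -0.23 to 0.12 (adjusted p = 0.721 by edgeR), and its sign turned without p16- replicate 2, at 0.0051.

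Tgfbr1 (ENSMUSG00000007613.15, chromosome 4, 47353222 to 47414931, plus strand), the type I receptor kinase, had 72.27, 88.35 and 84.65 CPM in p16+ and 74.14, 72.46 and 72.48 CPM in p16-. Replicates 2 and 3 of p16+ stood above the p16- libraries and replicate 1 did not. The log2 fold change was 0.16 with a 95% interval from -0.02 to 0.34 (adjusted p = 0.223 by edgeR).

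Tgfbr3 (ENSMUSG00000029287.14, chromosome 5, 107106570 to 107289629, minus strand), the betaglycan gene, had 294.9, 303.7 and 313.7 CPM in p16+ and 330.6, 364.7 and 362.6 CPM in p16-. Every p16+ library was below every p16- library, by a small distance. The log2 fold change was -0.21 (SE 0.08, adjusted p = 0.0709 by edgeR), and leaving out p16- replicate 1 made it a called fall (adjusted p = 0.0114), as it was with library sizes alone (0.0125), with DESeq2 (0.0262) and with the replicate number as a block (0.0311). The intervals of Tgfbr1 and Tgfbr2 leave room for changes of the sizes they span, so the test does not show these receptors to be alike in the groups.

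Within the receptor class Tgfbr2 made up 64.9% ± 1.57 of the summed CPM per kilobase in p16+ and 63.5% ± 1.13 in p16-, and Tgfbr1 7.44% ± 0.721 and 6.29% ± 0.536, with overlapping libraries. The share of Tgfbr3 was 27.6% ± 1.07 in p16+ and 30.2% ± 0.662 in p16-, without overlap (exact permutation p = 0.1, adjusted 0.125). The receptor sum overlapped between groups, at 166 to 171.1 in p16+ and 164.8 to 189.3 in p16-.

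The order of the 10 genes by CPM per kilobase was alike at both ends. Ltbp4 led, at 161.8 ± 24.1 in p16+ and 274.5 ± 18.7 in p16-, followed by Tgfbr2 at 109.2 ± 3.52 and 113.5 ± 9.86. At the low end stood Tgfbr1 at 12.5 ± 1.29 and 11.2 ± 0.148, Tgfb1 at 7.09 ± 0.487 and 4.77 ± 0.432, and Ltbp2 at 4.55 ± 1.07 and 1.80 ± 0.564. The middle differed. In p16+ the order was Ltbp3 (48.7 ± 1.74), Tgfbr3 (46.5 ± 1.44), Tgfb3 (31.6 ± 1.38), Ltbp1 (14.2 ± 2.24) and Tgfb2 (13.8 ± 0.309). In p16- it was Tgfbr3 (53.9 ± 2.92), Ltbp3 (37.8 ± 1.23), Ltbp1 (30.5 ± 2.15), Tgfb3 (22.2 ± 1.16) and Tgfb2 (20.9 ± 2.04). The libraries of neighbours in this order overlapped for Ltbp3 and Tgfbr3, for Ltbp1 and Tgfb2 and for Tgfb2 and Tgfbr1 in p16+, and for Tgfb3 and Tgfb2 in p16-.

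Likeness of pattern was measured for the gene with the largest rise and the gene with the largest fall, as the root mean square difference of centred log2 CPM over the 6 libraries, among 10765 other genes. Nearest to Ltbp2 were Slit2 (0.12), an axon guidance ligand gene, the chemokine gene Cx3cl1 (0.13) and the collagen gene Col24a1 (0.14). Nearest to Ltbp1 were Colgalt2 (0.05), a collagen galactosyltransferase gene, Tmem100 (0.05) and the basement membrane collagen gene Col4a4 (0.06). Their log2 fold changes were 1.21 to 1.46 in the first set and -1.18 to -1.01 in the second. The likeness is a description over 6 libraries that fall into 2 groups.

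The other genes of the pathway were counted in 5 lists, to be read against 8.69% higher, 8.04% lower and a median of -0.01 over all genes tested. Of 14 direct response genes 11 rose, 2 fell and 1 was not called, with a median log2 fold change of 0.50. Ccn2, a matricellular protein gene known as connective tissue growth factor, rose from 120.5 ± 4.08 to 214.4 ± 4.57 CPM (adjusted p = 1.18e-06 by edgeR). Gm15270 on the other strand covers 23.2% of its exons. Such overlap was larger for Tagln (67.9%) and Ldlrad4 (52.1%), which are also among the genes that rose. The type I collagen genes Col1a1 and Col1a2 rose by 0.89 and 0.77 on the log2 scale. The 2 genes that fell were Tgfbi, an adhesion protein gene named for its induction by TGF-beta (372.5 ± 44.1 to 263.8 ± 28.6 CPM), and Junb, an AP-1 gene (2373 ± 275 to 1855 ± 69.3 CPM). Leaving out p16+ replicate 2, or p16+ replicate 3, left 1 falling gene. The rising genes numbered 8, 9 and 8 without p16+ replicates 1, 2 and 3, and 10 to 11 without a p16- library. With library sizes alone they numbered 9. Col1a1 is also one of the 8 mesenchymal markers, of which 4 rose and 1 fell, and Acta2, counted here too, is one of the pericyte and smooth muscle markers. Cdkn2b, also among the genes that rose (7.79 ± 1.94 to 18.0 ± 2.57 CPM), lies next to Cdkn2a, the basis of the sort. The part of the sort in its rise was not tested.

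Of 19 genes for release and activation of the latent complex 18 were tested, of which 10 rose, 2 fell and 6 were not called (median 0.37). Tgm2, the transglutaminase that ties the latent complex to the matrix, rose from 97.2 ± 12.03 to 185.9 ± 6.33 CPM (adjusted p = 2.75e-06 by edgeR), and 21.8% of its exons are covered by Rprd1b and Gm20412 on the other strand. Lrrc32, which encodes GARP, a cell-surface anchor of latent TGF-beta, rose from 83.9 ± 12.2 to 145.1 ± 5.38 CPM (adjusted p = 2.12e-05 by edgeR). Furin, the protease gene of precursor cleavage, rose from 88.5 ± 4.83 to 113.3 ± 6.63 CPM, and the integrin gene Itgav from 144.3 ± 19.4 to 181.9 ± 9.60 CPM. The gene of the protease urokinase, Plau, was lower in p16+, at 307.4 ± 26.8 against 560.9 ± 39.7 CPM (edgeR adjusted p = 3.88e-06). The other gene that fell was the integrin gene Itgb6, which had 25 to 49 counts in p16- libraries and 2 to 13 in p16+ libraries. Leaving out p16+ replicate 1 or 2, or p16- replicate 2 or 3, left 1 falling gene. The rising genes numbered 7 to 11 with 1 library left out, fewest without p16+ replicate 3, and 8 with library sizes alone.

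Of 16 scaffold genes, whose products hold LTBPs or TGF-beta in the matrix, 8 rose, 2 fell and 6 were not called (median 0.27). Fbn2, the fibrillin gene of growing tissue, rose from 42.4 ± 9.05 to 110.3 ± 6.71 CPM (adjusted p = 8.93e-07 by edgeR), while Fbn1, the main adult fibrillin gene and the anchor of LTBPs, was at 4112 ± 763 and 3904 ± 126 CPM (adjusted p = 0.719), with 20.1% of its exons covered by Gm9913 on the other strand. Bgn, the biglycan gene, rose from 2551 ± 339 to 5359 ± 352 CPM, and Emilin1, whose product holds back processing of the TGF-beta precursor, from 172.5 ± 21.5 to 324.0 ± 17.5 CPM. The genes that fell were the fibulin gene Fbln5, which takes part in elastic fibre assembly with the Ltbp4 product (174.2 ± 19.9 to 114.7 ± 5.78 CPM), and Thsd4 (11.9 ± 3.16 to 7.05 ± 0.561 CPM). Without p16+ replicate 2 the number that rose was 5 and without p16- replicate 3 it was 4. Leaving out p16- replicate 3 also left 1 falling gene.

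Of 11 accessory receptor and SMAD genes 1 rose, 2 fell and 8 were not called (median 0.01). Cd109, whose product is a co-receptor that limits TGF-beta signalling, rose from 72.2 ± 17.4 to 145.1 ± 11.6 CPM (adjusted p = 0.000291 by edgeR). Acvrl1, the type I receptor gene ALK1, fell from 118.0 ± 3.12 to 95.9 ± 3.36 CPM, and Vasn, the TGF-beta trap vasorin, from 328.4 ± 28.2 to 269.6 ± 11.98 CPM. Leaving out p16+ replicate 1 or 3, or p16- replicate 3, left 1 falling gene, leaving out p16+ replicate 2 left 0, and without p16- replicate 2 there were 3. The SMAD genes that carry the signal did not pass, with Smad2 at 47.0 and 44.3 CPM, Smad3 at 88.8 and 83.7 CPM and Smad4 at 82.8 and 82.4 CPM in p16+ and p16-. Of 12 genes in the feedback inhibitor list 1 rose, 1 fell and 10 were not called (median -0.05). The list also holds Usp15 and Tgfb1i1, pathway regulators that are not feedback inhibitors in the strict sense, and neither was called. Pmepa1, a target that sequesters receptor SMADs, rose from 154.2 ± 11.2 to 264.9 ± 21.4 CPM (adjusted p = 8.79e-06 by edgeR), and the ubiquitin ligase gene Smurf2 fell from 106.9 ± 12.5 to 78.4 ± 1.39 CPM. The third by adjusted p in this list, Smurf1, was at 73.7 ± 7.35 and 86.8 ± 2.79 CPM (adjusted p = 0.0666). The inhibitory SMAD genes Smad6 and Smad7 had 7.36 and 33.3 CPM in p16+ and 7.87 and 30.9 CPM in p16-. With either p16+ replicate 2 or p16- replicate 1 left out, 2 of these genes were called lower.

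**Figure D4:**
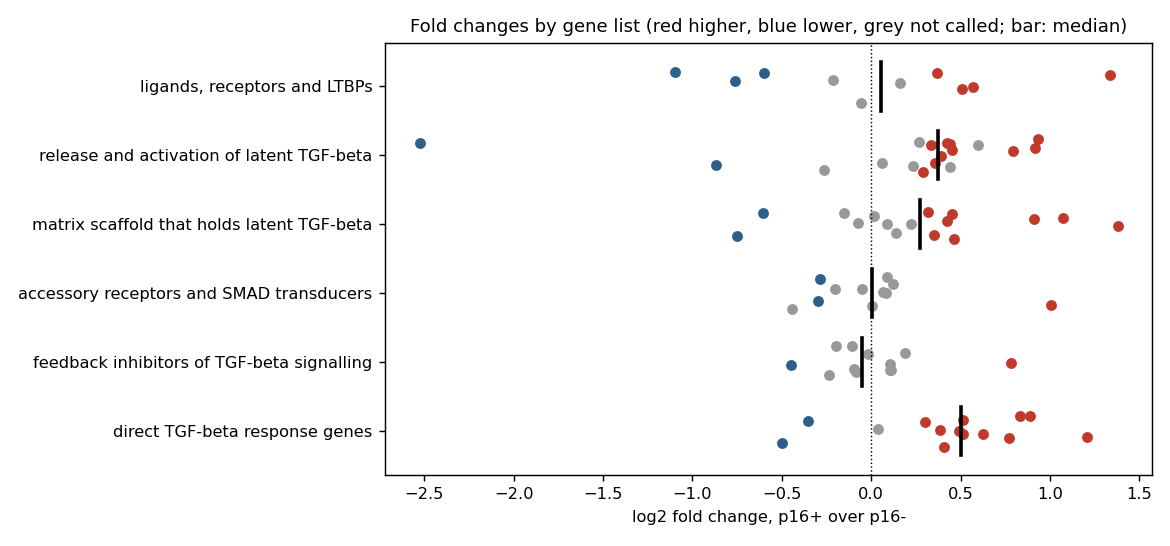
Log2 fold change, p16+ over p16-, of each tested gene (points) in the member list and the 5 pathway lists, with the median of each list as a black bar. The median is 0.50 for response genes, 0.37 for release genes and 0.27 for scaffold genes, and near 0 for the members, the accessory and SMAD genes and the feedback inhibitors.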

How the data were processed

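Each of the 6 deposited files gives the fragment count of every gene, from featureCounts 1.6.0 run on vM21 exons with no strand option, per the file headers. STAR 2.7.3a and the build GRCm38.p6 are named in the submitters' processing notes. All 55536 identifiers, positions and lengths matched vM21, whose symbols were used. From these counts, genes were kept by filterByExpr and fitted across all 15903 genes with TMM factors and the robust quasi-likelihood test of edgeR 4.0.16 (R 4.3.3), with the group alone in the model. SE is the fold change over the root of F. Library totals were 35253406 to 39103909 counts. Effective sizes (counts of the kept genes times the TMM factor) of 34247423 to 40678190 set a counting limit of 3 counts at 0.07375 to 0.0876 CPM.

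The test was tested on simulated counts. The members and lists were chosen with earlier results of these data known. Named were the members, Cdkn2a, the 3 genes of smallest p in each pathway list and the genes of likest pattern. Fbn1, Fn1, Furin, Itgav, Smad2, Smad3, Smad4, Smad6, Smad7, Cdkn2b, Usp15, Tgfb1i1, Csf1r, Cd68 and Tek were named after their values were seen. So were Klf10, Skil, Tagln, Ldlrad4 and the falling genes in small counts. Alternatives were other factors and filters, DESeq2 1.42.0, the replicate block and leaving out each library.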

Additional observations from a re-analysis of the deposited data

How the results depend on the processing

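The 7 called members kept their direction and their call under all 13 alternatives. Tgfbr3 was not called in the main test and was called lower with library sizes alone (log2 fold change -0.29), with DESeq2 (-0.21), with the replicate block (-0.21) and without p16- replicate 1. Its values with 1 library left out ranged from -0.26 to -0.19. Those of Tgfbr2 ranged from -0.12 to 0.0051. Deviations from the group means had r of 0.028, 0.082 and -0.005 between same-numbered libraries and -0.069 to 0.039 between the others. With 3 libraries per group this cannot show whether same-numbered libraries shared an animal or a batch. With the replicate block 3114 of the 15903 genes were called in place of 2660, and the members were 4 higher and 4 lower. Some small list counts moved. The feedback inhibitors called lower were 2 in place of 1 with library sizes alone and with the replicate block. In place of 2, the release genes called lower were 1 with the stricter filter. They were 3 with library sizes alone, with no filter on low counts and with the replicate block. The accessory and SMAD genes called lower were 3 in place of 2 with no filter and with the replicate block. With 1 library left out the counts called lower ranged from 0 to 3 for accessory and SMAD genes and 1 to 2 for response genes. They were 1 to 2 for feedback inhibitors, 1 to 3 for scaffold genes and 1 to 2 for release genes. The counts called higher ranged from 8 to 11 for response genes, 7 to 11 for release genes and 4 to 8 for scaffold genes. With counts in place of counts per kilobase the share differences (p16+ minus p16-, percentage points) were 5.12 for Tgfb1, -18.95 for Tgfb2, -4.22 for Ltbp1 and 12.53 for Ltbp3. Per kilobase these differences were 3.54, -17.27, -2.66 and 10.39. The scales differ only in the division by exonic length. The cause of the shifts in the list counts was not tested. Of the counts over all genes, all stayed within 1.5 times. Depth did not limit the members, each with at least 456 counts in every library.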
